A study of Mus musculus with 12 samples.

Results

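The insulin-like growth factor (IGF) axis was followed in mouse embryonic fibroblasts under treatment with chemical combinations. Of its genes, 9 were taken by name, a list chosen with earlier results of these data known. These were the ligand genes Igf1 and Igf2, the receptor gene Igf1r, and the binding protein genes Igfbp2, Igfbp3, Igfbp4, Igfbp5, Igfbp6 and Igfbp7. They are 9 of the 12393 genes that could be named on the array and were read by 21 probe sets. All 9 passed the level filter that left 10674 genes for testing. Counts and medians of the members set beside those of all genes therefore describe this list and do not test it. Mouse embryonic fibroblasts (MEFs) are mesenchymal cells grown out of dissociated embryos, and the series asks how chemical combinations move them toward other lineages. The cells were first kept in medium with 10% fetal bovine serum and seeded at 20000 cells per dish. On the following day they were moved to a medium with 15% serum and 40 ng/ml basic fibroblast growth factor under a growth protocol stated for all 12 arrays. One arm received the combination 6TCF and the other SGCF. Both were sampled at days 0, 5 and 10 on Affymetrix Mouse Genome 430A 2.0 arrays, which makes 6 groups of 2 arrays, 12 arrays in all. What 6TCF and SGCF contain, and the mouse strain, the sources used here do not give. No day 5 or day 10 array carries a label of cells left without chemicals. Treatment, any effect of the change of medium, and time in culture thus cannot be told apart in a change from day 0. The labels leave unsaid whether replicates come from different embryos or cultures, and p-values may then measure only technical spread.

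IGF1 and IGF2 are secreted peptides that activate the receptor tyrosine kinase IGF1R, which signals through docking proteins to the PI3K-AKT and MAP kinase pathways and supports growth and survival of fibroblasts. IGF-binding proteins (IGFBPs) are secreted by the same cells, hold the ligands in the medium and the matrix, and either keep them from the receptor or release them after cleavage by proteases. Igf2 is an imprinted gene that is highly active in embryonic mesenchyme and is turned down in most adult tissues.

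All levels below are log2(intensity + 16) after quantile normalization between arrays, a scale that understates changes of dim genes, and levels are compared between arrays of 1 probe set, never between genes. Changes are log2 differences with the standard error (SE) of a limma fit over the 12 arrays, and a gene was called when its Benjamini-Hochberg adjusted p over the 10674 genes was under 0.05. As deposited, SGCF arrays were dimmer (medians of 60.9 to 86.2) than 6TCF arrays (medians of 102.4 to 142). Brightness thus went with the arm, and comparisons between arms hold both. The labels name no batch, and any batch that went with the arm cannot be told apart from it. The 3' minus 5' log2 signal of the actin control probe sets, a sign of RNA quality, averaged 0.34, 0.80 and 1.01 at days 0, 5 and 10 of 6TCF (n = 2 each). With SGCF the averages were 0.33, 0.44 and 0.46. The same signal of Gapdh averaged 0.37, 0.49 and 0.48 under 6TCF and -0.017, 0.10 and 0.11 under SGCF, apart between the arms from day 0. Their part in the changes below was not tested. All 12 fibroblast markers lay above the filter level of 5.27 in every group. Their mean level, the log2 of the mean intensity of a list plus 16, was 12.13 to 12.25 at day 5 of SGCF and 12.44 to 12.61 on the other arrays. Under SGCF, 7 of the 12 fell and 2 rose by day 5 (median -0.51). From day 5 to day 10 of SGCF, 8 rose and 1 fell (median 0.62). These are the steps at which Igf1 and Igfbp5 fell and returned. Under 6TCF, where most members rose, 5 of the 12 fell and 4 rose by day 5 (median -0.21). By day 10 of 6TCF, 7 were lower and 4 higher than at day 0 (median -0.53). Of 4 tested cartilage and bone markers, 2 fell by day 5 and 3 by day 10 of 6TCF (0 rose), and under SGCF 2 fell at each time, with 1 higher by day 5. The part of these cells in the members' changes was not tested. Between the 2 arrays of a group, the members differed most at day 0 of SGCF, by a median of 0.35 and by up to 0.73 for Igf2, and 6 of the 9 members had their widest gap in that group.

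Under 6TCF the 9 members moved early and mostly upward. By day 5, 7 of 9 members had risen and 2, Igf1r and Igfbp7, had fallen, where 27.6% of all genes tested were called (15.1% higher and 12.4% lower). The count was 7 without 6TCF day 0 replicate 2 and with the 4 day 0 arrays as 1 group, and 8 without either 6TCF day 5 array. By day 10 the same 7 were higher and the same 2 lower, against 43.1% of all genes (23.2% higher and 19.9% lower). From day 5 to day 10 only 3 of 9 were called (15.6% of all genes, 8.6% higher and 6.99% lower): Igf1 and Igfbp6 rose further and Igf1r fell further. This count rests on single arrays: without any one of the 4 arrays at days 5 and 10 of 6TCF it was 1, and the calls of Igfbp6 (0.48 to 0.58) and Igf1r (-0.77 to -0.60) were lost. The members' median change was 0.91 by day 5 and 1.76 by day 10, while the median over all genes tested was -0.0005 and -0.01.

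SGCF gave another order of events. By day 5, 5 of 9 members had fallen (Igf1, Igf1r, Igfbp5, Igfbp6 and Igfbp7), Igfbp3 had risen, and 3 were not called, with 25.4% of all genes called (12.8% higher and 12.6% lower). By day 10, 4 were above day 0 (Igf1, Igf2, Igfbp3 and Igfbp4), 3 were below it (Igf1r, Igfbp6 and Igfbp7) and 2 were not called, against 38.6% of all genes (20.5% higher and 18.2% lower). The step from day 5 to day 10 was all upward, with 6 of 9 members higher and 0 lower (3 not called), where 21.5% of all genes were called, 11.6% higher and 9.89% lower. The medians of the members were -0.58 by day 5, 0.09 by day 10 and 1.35 from day 5 to day 10, against 0.02, 0.03 and -0.004 over all genes.

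The change by day 5 differed between the arms for 8 of 9 members, each lower under SGCF, in a test of the difference itself that called 8.82% of all genes (2.85% higher and 5.97% lower). By day 10 the difference was called for 5 of 9, of which 4 were lower under SGCF (Igf1, Igfbp2, Igfbp5 and Igfbp6) and Igf1r was higher, against 25.4% of all genes (12.1% higher and 13.3% lower). The 2 tests share the day 0 arrays of both arms. With 2 arrays a group, separation of the arrays is common: from day 0 to day 5, from day 0 to day 10 and from day 5 to day 10 the groups did not overlap for 9, 9 and 7 members under 6TCF, where 65.9%, 78.1% and 62.9% of all genes did not. Under SGCF it was 7, 7 and 6 members, with 55.9%, 64.4% and 62.7% of all genes.

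**Figure D1:**
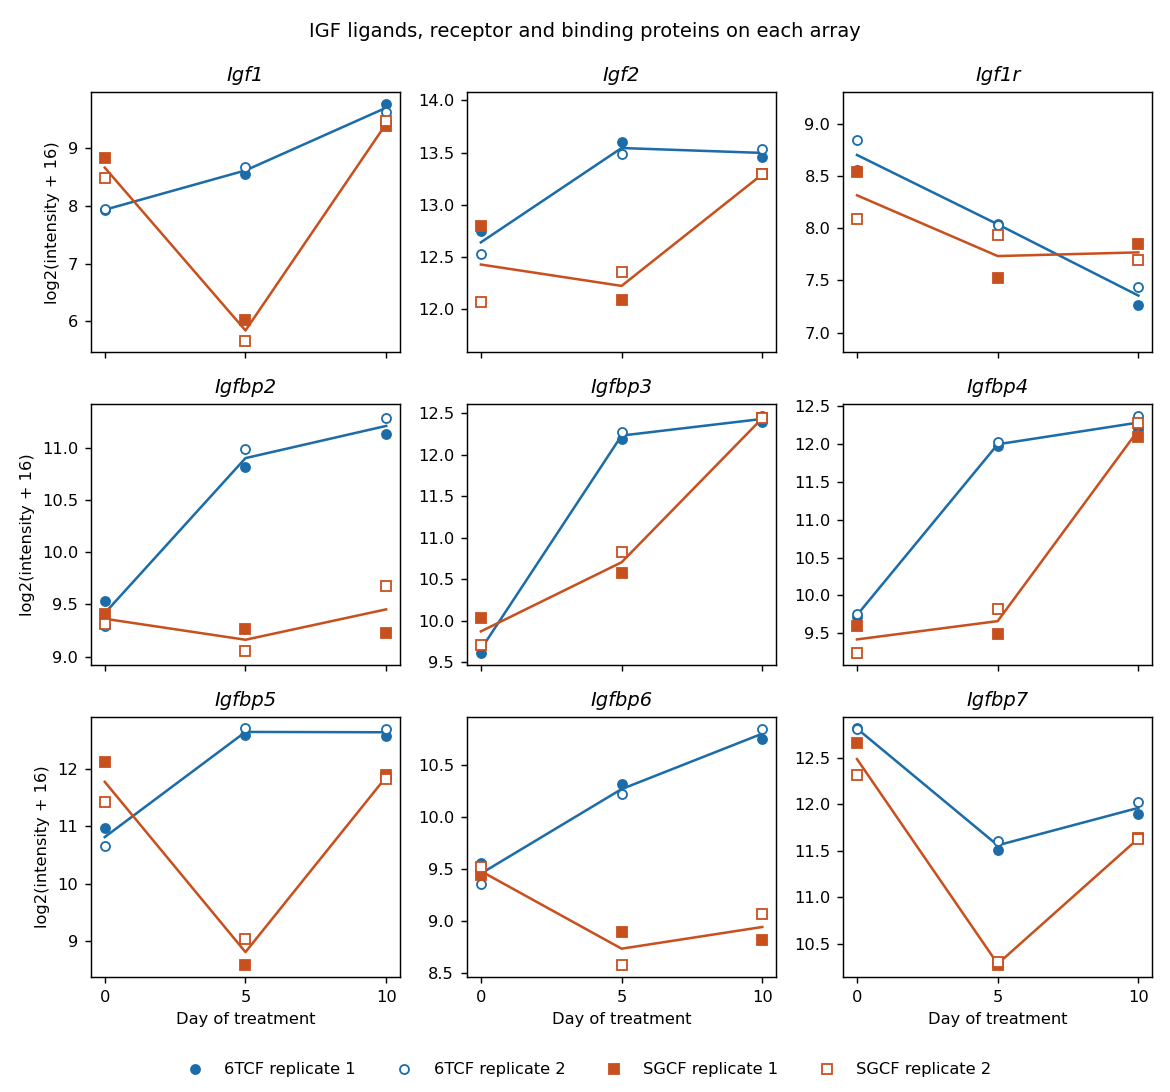
Level of each member, as log2(intensity + 16), on every array against the day of treatment, with circles for 6TCF, squares for SGCF, filled symbols for replicate 1, open symbols for replicate 2 and lines through group means (n = 2). On the brightest probe set of each gene, Igf1 and Igfbp5 drop at day 5 of SGCF and return by day 10. On these probe sets Igfbp3 and Igfbp4 reach overlapping levels in both arms at day 10, later under SGCF.

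**Figure D2:**
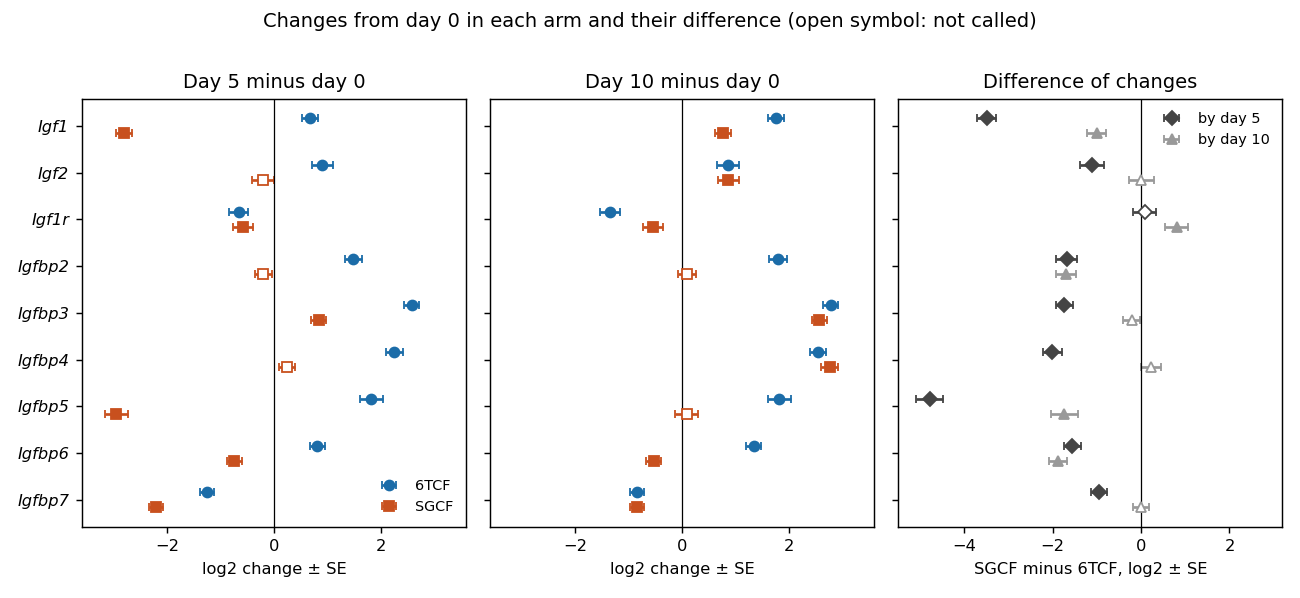
Log2 change of each member from day 0 to day 5 and to day 10 (circles 6TCF, squares SGCF), and the difference of these changes, SGCF minus 6TCF (diamonds by day 5, triangles by day 10); bars are SE and open symbols were not called. By day 5 all differences but that of Igf1r lie below 0, from -0.95 for Igfbp7 to -4.78 for Igfbp5.

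The sequences before the start of transcription are shown for 4 members because these genes carry the contrasts that follow. On their brightest probe sets, Igfbp3 and Igfbp4 end at overlapping levels in both arms, and Igf1 and Igfbp5 fall and return under SGCF. Each run is the 250 bases before the RefSeq transcript start (assembly GRCm38.p6), written 5' to 3' on the gene's strand, with capitals on matches to the E-box CANNTG, the AP-1 site TGANTCA and the TATA box TATAAA on either strand.
Igf1, chr10:87860861-87861110, plus strand: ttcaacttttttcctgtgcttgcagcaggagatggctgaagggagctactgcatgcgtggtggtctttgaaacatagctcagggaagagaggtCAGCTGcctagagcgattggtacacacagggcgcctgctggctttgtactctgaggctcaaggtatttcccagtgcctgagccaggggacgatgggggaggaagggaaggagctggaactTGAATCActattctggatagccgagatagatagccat
Igfbp3, chr11:7213924-7214173, minus strand: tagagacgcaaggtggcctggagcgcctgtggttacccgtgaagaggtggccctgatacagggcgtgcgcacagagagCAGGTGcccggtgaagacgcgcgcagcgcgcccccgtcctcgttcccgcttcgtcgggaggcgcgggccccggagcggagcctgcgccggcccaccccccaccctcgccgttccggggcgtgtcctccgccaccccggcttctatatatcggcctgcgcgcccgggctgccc
Igfbp4, chr11:99040994-99041243, plus strand: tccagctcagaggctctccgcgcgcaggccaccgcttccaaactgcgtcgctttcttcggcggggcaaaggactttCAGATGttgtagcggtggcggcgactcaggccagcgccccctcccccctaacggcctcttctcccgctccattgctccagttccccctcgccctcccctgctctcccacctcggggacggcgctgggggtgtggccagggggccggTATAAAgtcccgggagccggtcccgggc
Igfbp5, chr1:72874866-72875115, minus strand: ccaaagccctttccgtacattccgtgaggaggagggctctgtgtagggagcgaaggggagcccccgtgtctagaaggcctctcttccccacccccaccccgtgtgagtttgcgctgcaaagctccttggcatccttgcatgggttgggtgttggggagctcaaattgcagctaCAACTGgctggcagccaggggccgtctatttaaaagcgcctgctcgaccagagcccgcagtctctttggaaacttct
Each of the 4 windows held 1 E-box, as 66.2% of the 32851 promoter windows in the table held at least 1. The exact letters TATAAA stood 28 bases before the start of Igfbp4 only (12.4% of all windows), and the AP-1 site in the Igf1 window only (6.75%). Looser forms of the TATA box were not searched. No window of the 4 held the cyclic AMP response element TGACGTCA (1.55%), its shorter form TGACG (17.8%), the TCF/LEF site ATCAAAG (3.21%) or the GC box GGGCGG (32.7%), counting both strands. The share of G and C was 73.2% before Igfbp3, 69.2% before Igfbp4, 58.8% before Igfbp5 and 52.8% before Igf1, with a median of 52.4% over all windows. The matches describe these letters and say nothing about binding in the cells.

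Igf1 encodes the ligand that drives postnatal growth and that mesenchymal cells secrete locally. On the 6TCF arrays its level was 7.92 and 7.93 at day 0, 8.55 and 8.66 at day 5, and 9.76 and 9.62 at day 10. The SGCF arrays gave 8.83 and 8.48 at day 0, 6.02 and 5.67 at day 5, and 9.37 and 9.46 at day 10. The gene climbed at each step of 6TCF with no overlap between days, whereas under SGCF it dropped below every other array of the series at day 5 and stood above its own day 0 arrays at day 10. Igf1 rose by 0.68 ± 0.15 by day 5 of 6TCF (adjusted p = 0.00556) and by 1.76 ± 0.15 by day 10 (adjusted p = 3.03e-06). With SGCF it fell by 2.81 ± 0.15 by day 5 (adjusted p = 1.22e-07), and rose by 3.57 ± 0.15 from day 5 to day 10 (adjusted p = 7.14e-08). The difference of changes, SGCF minus 6TCF, was -3.49 ± 0.21 by day 5 (adjusted p = 4.41e-06) and -1.004 ± 0.21 by day 10 (adjusted p = 0.00653). At day 10 itself the arms were -0.28 ± 0.15 apart on the brightest probe set (SGCF minus 6TCF, adjusted p = 0.193), but -1.22 ± 0.13 and -1.41 ± 0.18 apart on the other 2 (adjusted p = 5.22e-05 and 0.000193). The SGCF day 5 values lay at the 39th and 33.2nd percentile of all values on their arrays, and sizes that rest on them moved with the pseudocount. With pseudocounts 1 and 64 the fall was -3.20 and -2.10, the return 3.98 and 2.79, and the difference of changes by day 5 -3.91 and -2.68, all still called.

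The 3 probe sets of Igf1 agreed on the fall by day 5 of SGCF (-2.14 to -2.81), on the return (1.73 to 3.57) and on the rise by day 10 of 6TCF (1.33 to 1.76), and all 3 were called in each case. They split on the end point of SGCF against its day 0. The brightest gave 0.76 ± 0.15 (adjusted p = 0.00198), the next -0.41 ± 0.13 (adjusted p = 0.027, called lower) and the dimmest -0.11 ± 0.18 (adjusted p = 0.67). The rise above day 0 at day 10 of SGCF therefore holds for 1 of 3 probe sets. The rise by day 5 of 6TCF was also called on the brightest alone, with the other values at 0.33 and 0.43. That rise was 0.32 (adjusted p = 0.348) and no longer called when the 4 day 0 arrays formed 1 group.

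Macrophages, which MEF cultures can hold, also express Igf1, and their markers moved in these arrays. In bulk RNA, fewer cells of a type and less RNA per cell cannot be told apart. The 14 macrophage markers, all of them tested, had a mean level of 8.10 to 8.17 at day 0, 6.48 to 6.65 at day 5 and 7.21 to 7.29 at day 10 of 6TCF. In the SGCF arm the mean level was 9.19 to 9.34, 6.12 to 6.40 and 6.10 to 6.28 on the same days. By day 5, 12 of 14 were lower and 1 higher under 6TCF, and 13 were lower and 1 higher under SGCF. At day 0, 13 of 14 were higher in the SGCF arm than in the 6TCF arm, and 0 were lower. Igf1 on its brightest probe set rose by day 5 of 6TCF, where most of these markers fell. From day 5 to day 10 of 6TCF it rose by 1.08 ± 0.15 (adjusted p = 0.0014), where 7 of 14 markers rose and 0 fell. From day 5 to day 10 of SGCF it rose where 0 of the 14 rose, 1 fell and 13 were not called. The fall of Igf1 by day 5 of SGCF went the same way as the markers. Their part in the changes of Igf1 was not tested.

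**Figure D3:**
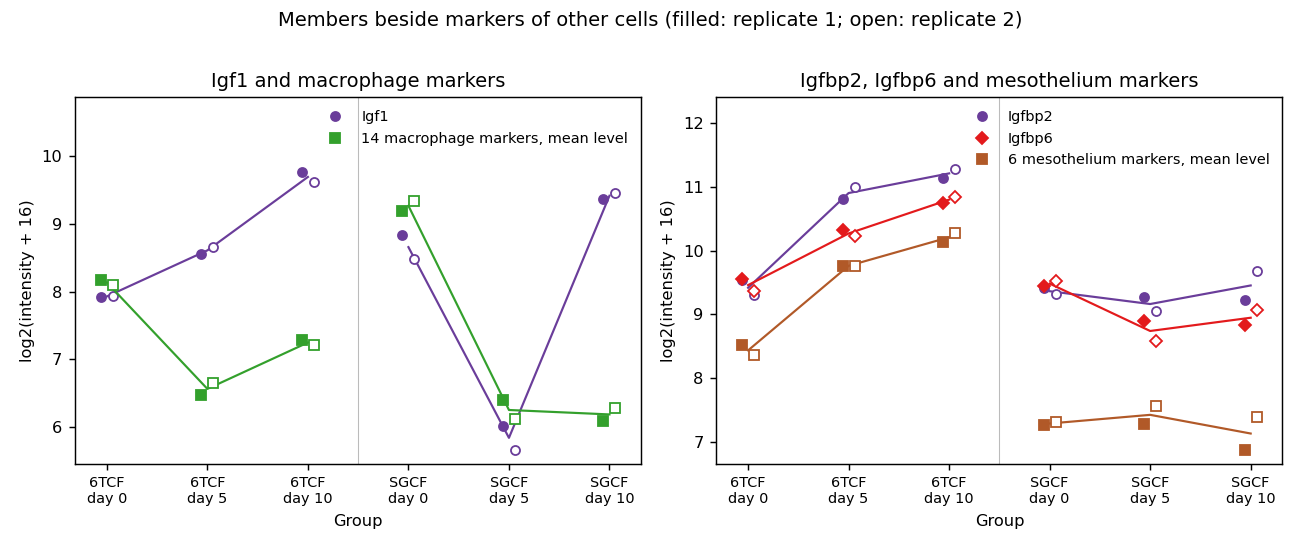
Level of Igf1 beside the mean level of 14 macrophage markers, and of Igfbp2 and Igfbp6 beside 6 mesothelium markers, as log2(intensity + 16), with filled symbols for replicate 1, open symbols for replicate 2 and lines through the means of each arm (n = 2). Igf1 stands at 9.37 and 9.46 at day 10 of SGCF, where the macrophage markers average 6.10 to 6.28; the mesothelium markers climb with Igfbp2 and Igfbp6 under 6TCF.

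Igf2 encodes the fetal ligand, which binds both IGF1R and the clearance receptor IGF2R. Its level was 12.75 and 12.53 at day 0 of 6TCF, 13.60 and 13.48 at day 5, and 13.46 and 13.53 at day 10. In the SGCF arm it was 12.79 and 12.06, then 12.08 and 12.36, and 13.29 on both arrays at day 10. Igf2 lay at or above the 97.4th percentile of its array throughout, so these are among the brightest signals measured. Whether a ceiling of the signal limited its changes was not tested. It rose by 0.90 ± 0.20 by day 5 of 6TCF (adjusted p = 0.0053), a call lost without 6TCF day 0 replicate 2 (0.81, adjusted p = 0.0511), and gave -0.05 ± 0.20 from day 5 to day 10. SGCF gave -0.21 ± 0.20 by day 5 (adjusted p = 0.503), which was -0.57 and called lower without SGCF day 0 replicate 2 (adjusted p = 0.0224), and a rise of 1.07 ± 0.20 from day 5 to day 10 (adjusted p = 0.00248). By day 10 both arms were above day 0, at 0.86 ± 0.20 and 0.87 ± 0.20, with a difference of changes of 0.008 ± 0.28 (adjusted p = 0.987). The difference by day 5 was -1.11 ± 0.28 (adjusted p = 0.0295). It lost its call with pseudocount 1 (-1.11) and without any one of 5 arrays (both at day 0 and both at day 5 of 6TCF, and SGCF day 5 replicate 1), with values of -1.25 to -0.96. Without SGCF day 0 replicate 2, the rise by day 10 of SGCF was 0.50. The other Igf2 probe set was dim (6.57 at its highest group mean). Among changes within an arm it was called only for the 2 rises to day 10 of SGCF. The dim probe set gave -0.47 ± 0.39 for the difference of changes by day 5 (adjusted p = 0.533). At day 5 itself the arms stood -1.32 ± 0.20 apart on the bright probe set (SGCF minus 6TCF, adjusted p = 0.000688). The dim one gave -1.15 ± 0.27 there (adjusted p = 0.011), and -0.68 ± 0.27 at day 0 (adjusted p = 0.108). At day 10 neither was called between the arms (-0.20 and 0.07).

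Igf1r encodes the signalling receptor for both ligands. It read 8.56 and 8.85, 8.05 and 8.03, and 7.27 and 7.44 at days 0, 5 and 10 of 6TCF. Under SGCF it read 8.54 and 8.09, 7.53 and 7.94, and 7.85 and 7.69. The receptor thus went the opposite way to Igf1 under 6TCF, with no overlap between days, and reached its lowest level there. It fell by 0.67 ± 0.18 by day 5 (adjusted p = 0.0169) and by 1.35 ± 0.18 by day 10, 2.55-fold (adjusted p = 0.000104). With SGCF it fell by 0.58 ± 0.18 by day 5 (adjusted p = 0.0344) and by 0.55 ± 0.18 by day 10 (adjusted p = 0.0318). Both SGCF calls were lost without SGCF day 0 replicate 1 (-0.36 and -0.32) and when that arm was fitted alone (-0.56 and -0.53). The call by day 5 was also lost with pseudocount 1 (-0.62) and without SGCF day 5 replicate 1 (-0.38), and that by day 10 without either SGCF day 10 array (-0.63 and -0.47). The call by day 5 of 6TCF was lost without 6TCF day 0 replicate 2 or either 6TCF day 5 array (-0.67 to -0.52) and with the 4 day 0 arrays as 1 group (-0.47). A dimmer probe set fell by 0.79 ± 0.18 and by 0.85 ± 0.18 by days 5 and 10 of 6TCF, and gave -0.23 ± 0.18 and 0.08 ± 0.18 under SGCF, neither called. By day 10 the difference of changes was 0.80 ± 0.26 (adjusted p = 0.0401). That call was lost without any one of 8 arrays (0.58 to 0.89) and with pseudocount 1 (0.86). The dimmer probe set gave 0.93 ± 0.26 (adjusted p = 0.0258). None of the 5 neighbouring pairs in the order of group means differed at the threshold.

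Igfbp3, the main carrier of IGFs in plasma and a product of many fibroblasts, rose in both arms at both times. It went from 9.61 and 9.70 at day 0 to 12.19 and 12.27 at day 5 and 12.40 and 12.47 at day 10. In the SGCF arm it went from 10.03 and 9.71 to 10.58 and 10.83 and then to 12.44 on both arrays. The day 10 arrays of the arms overlapped, with means 0.0086 ± 0.137 apart (adjusted p = 0.97), but 6TCF had made nearly the whole rise by day 5 and SGCF had not. The change was 2.58 ± 0.14 by day 5 of 6TCF, 5.97-fold (adjusted p = 1.02e-07), and 0.83 ± 0.14 by day 5 of SGCF, 1.78-fold (adjusted p = 0.00077). By day 10 it was 2.78 ± 0.14 under 6TCF and 2.57 ± 0.14 under SGCF. The difference of changes was -1.74 ± 0.19 by day 5 (adjusted p = 0.000201) and -0.21 ± 0.19 by day 10 (adjusted p = 0.464).

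Igfbp4, whose protein inhibits IGF action until the protease PAPP-A cleaves it, also rose in both arms by day 10, but was not called by day 5 of SGCF. On the 6TCF arrays it read 9.72 and 9.76 at day 0, 11.97 and 12.02 at day 5, and 12.20 and 12.37 at day 10. On the SGCF arrays it read 9.60 and 9.24, 9.50 and 9.83, and 12.09 and 12.27. On this probe set, the brightest, the day 0 and day 5 arrays of SGCF overlapped, and the day 10 arrays of the 2 arms overlapped as well. The gene rose by 2.25 ± 0.15 by day 5 of 6TCF (adjusted p = 7.14e-07), while SGCF gave 0.24 ± 0.15 (adjusted p = 0.286). From day 5 to day 10 of SGCF it rose by 2.52 ± 0.15, 5.75-fold (adjusted p = 1.03e-06). SGCF minus 6TCF, the difference of changes was -2.01 ± 0.22 by day 5 (adjusted p = 0.000176) and 0.22 ± 0.22 by day 10 (adjusted p = 0.487). All 6 probe sets of Igfbp4 were called higher by day 5 and day 10 of 6TCF and by day 10 of SGCF, and 0 of 6 by day 5 of SGCF. Some of these probe sets, the second brightest among them, are of types that the array maker marks as able to match more than 1 transcript. Their signal may hold related sequences. The size varied with the probe set, from 0.51 to 2.65 by day 5 of 6TCF and from 1.25 to 3.10 by day 10 of SGCF, with the dimmest probe set lowest in each. The difference of changes by day 5 was called on 5 of the 6, from -2.45 to -0.72, and was -0.28 ± 0.19 on the dimmest (adjusted p = 0.445). At day 10 itself the arms were -0.10 and -0.03 apart on the 2 brightest probe sets (SGCF minus 6TCF). On the others the values were 0.20, 0.21, 0.24 and 0.49, and both SGCF arrays lay above both 6TCF arrays. Of these day 10 values only that of the dimmest was called (adjusted p = 0.0198).

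**Figure D4:**
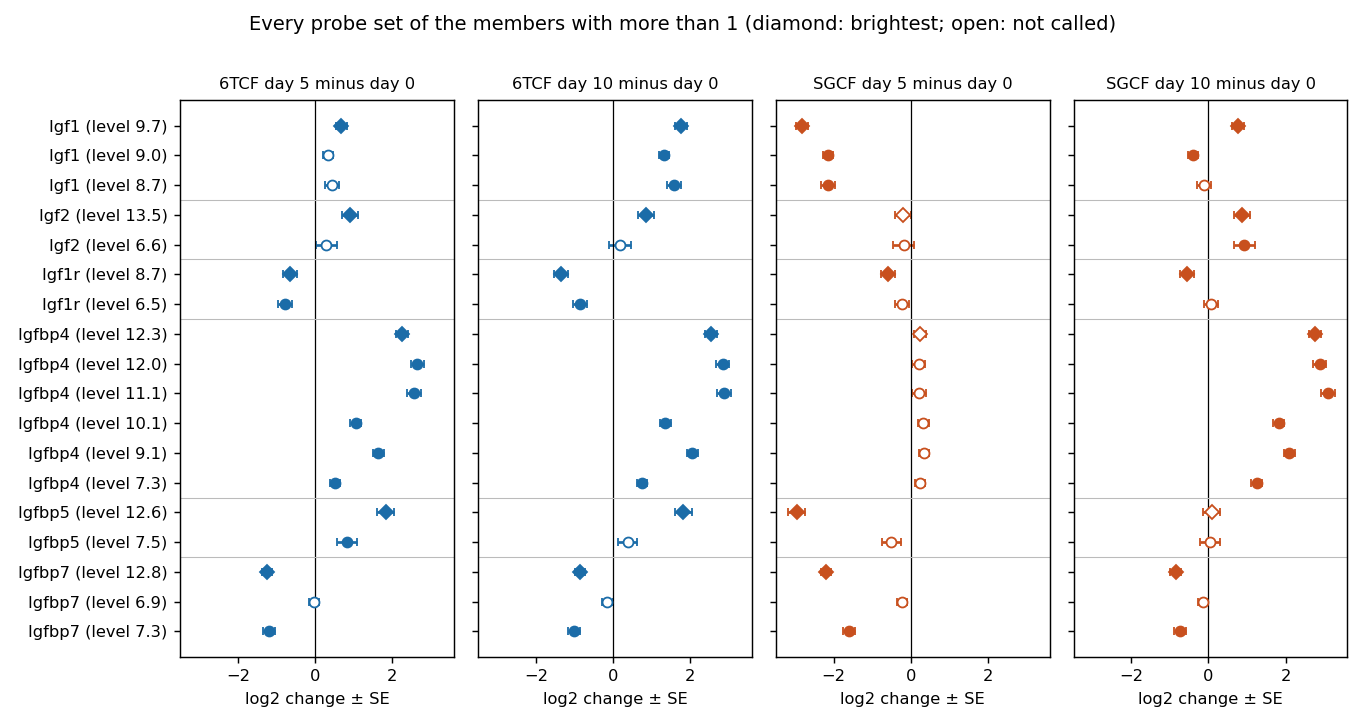
Log2 change from day 0 with its SE for all 18 probe sets of the 6 members that have more than 1, each marked by its highest group mean level; diamonds mark the brightest probe set of a gene and open symbols were not called. The 3 Igf1 probe sets differ in sign at day 10 of SGCF, only 1 of them was called at day 5 of 6TCF, and the 6 Igfbp4 probe sets agree in direction in all 4 comparisons.

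Igfbp2, which binds both ligands and is abundant in fetal tissues, changed in the 6TCF arm alone at the threshold used. It read 9.54 and 9.30 at day 0 of 6TCF, 10.82 and 10.99 at day 5, and 11.14 and 11.29 at day 10. The SGCF arrays read 9.41 and 9.32, 9.27 and 9.06, and 9.23 and 9.68. All 6 SGCF arrays lay between 9.06 and 9.68, below every 6TCF array at days 5 and 10. Igfbp2 rose by 1.49 ± 0.16 by day 5 of 6TCF (adjusted p = 3.1e-05) and by 1.80 ± 0.16 by day 10, 3.47-fold (adjusted p = 4.48e-06). For SGCF the values were -0.20 ± 0.16 by day 5 (adjusted p = 0.41) and 0.09 ± 0.16 by day 10 (adjusted p = 0.702). Between the arms, the difference of changes was -1.69 ± 0.23 by day 5 (adjusted p = 0.000793) and -1.71 ± 0.23 by day 10 (adjusted p = 0.000443).

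Igfbp6, whose protein prefers IGF2 over IGF1, moved in opposite directions in the arms. With 6TCF it read 9.56 and 9.36, 10.32 and 10.22, and 10.75 and 10.85 at days 0, 5 and 10. With SGCF it read 9.44 and 9.52, 8.89 and 8.58, and 8.83 and 9.07. From overlapping day 0 arrays, every 6TCF array at days 5 and 10 lay above and every such SGCF array below. Igfbp6 rose by 0.81 ± 0.14 by day 5 and 1.34 ± 0.14 by day 10 of 6TCF (adjusted p = 0.00114 and 1.59e-05). It fell by 0.74 ± 0.14 by day 5 and by 0.54 ± 0.14 by day 10 of SGCF (adjusted p = 0.00227 and 0.0106). The difference of changes was -1.56 ± 0.20 by day 5 (adjusted p = 0.000568) and -1.88 ± 0.20 by day 10 (adjusted p = 0.000107). Without SGCF day 10 replicate 1 the fall by day 10 of SGCF was -0.42 and no longer called.

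Markers of mesothelium, the cell layer lining body cavities, were higher in the arrays where Igfbp2 and Igfbp6 were high. The 6 tested of 8 listed had a mean level of 8.35 to 8.51 at day 0, 9.76 to 9.77 at day 5 and 10.14 to 10.28 at day 10 of 6TCF. In the SGCF arm the range over all 6 arrays was 6.88 to 7.57. By day 5 of 6TCF 5 of 6 were higher and 1 lower, and by day 5 of SGCF 2 were higher and 2 lower. Their part in the changes of Igfbp2 and Igfbp6 was not tested. At day 0 the mesothelium markers were already lower in the SGCF arm (4 of 6 lower, 0 higher), where Igfbp2 stood at -0.05 ± 0.16 and Igfbp6 at 0.02 ± 0.14 against the 6TCF arm, neither called.

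Igfbp5, whose protein binds extracellular matrix and can either hold back or enhance IGF action, rose under 6TCF and fell and returned under SGCF. Its 6TCF arrays read 10.96 and 10.66 at day 0, 12.57 and 12.70 at day 5, and 12.57 and 12.69 at day 10. The SGCF arrays read 12.12 and 11.42 at day 0, 8.58 and 9.04 at day 5, and 11.89 and 11.81 at day 10. At day 5 the SGCF arrays were the lowest of the series and the 6TCF arrays, with those of day 10, the highest. The gene rose by 1.83 ± 0.22 by day 5 of 6TCF (adjusted p = 5.73e-05) and stayed there, at -0.006 ± 0.22 from day 5 to day 10. It fell by 2.96 ± 0.22 by day 5 of SGCF, 7.77-fold (adjusted p = 1.17e-06), and rose by 3.04 ± 0.22 from day 5 to day 10, 8.24-fold (adjusted p = 2.99e-06), ending at 0.08 ± 0.22 against day 0 (adjusted p = 0.795). SGCF minus 6TCF, the difference of changes was -4.78 ± 0.30 by day 5 (adjusted p = 5.03e-06) and -1.74 ± 0.30 by day 10 (adjusted p = 0.00231). At day 0 this probe set was higher in the SGCF arm by 0.96 ± 0.22 (adjusted p = 0.013). At day 5 itself the arms stood -3.82 ± 0.22 apart (SGCF minus 6TCF, adjusted p = 4.07e-07), and at day 10 -0.78 ± 0.22 (adjusted p = 0.0203).

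The second Igfbp5 probe set was dim, with a highest group mean of 7.48. It pointed the same way in each comparison against day 0 but was called only for the rise by day 5 of 6TCF (0.83 ± 0.25, adjusted p = 0.0309), and gave -0.50 ± 0.25 by day 5 of SGCF (adjusted p = 0.181). It was also called for the difference of changes by day 5, with a value of -1.33. By day 10 that difference was -0.35 ± 0.36 (adjusted p = 0.522), and at day 0 the probe set stood at -0.11 ± 0.25 between the arms (adjusted p = 0.79). The bright probe set is of the type that the array maker marks as able to match more than 1 transcript, so its signal may hold related sequences.

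Igfbp7, a secreted protein of vessels and stroma with low affinity for IGFs, fell in both arms by day 5, and from day 5 to day 10 it rose under SGCF and was not called under 6TCF. It read 12.82 and 12.81 at day 0 of 6TCF, 11.51 and 11.61 at day 5, and 11.90 and 12.02 at day 10. In the SGCF arm it read 12.66 and 12.31, then 10.27 and 10.30, then 11.63 on both arrays. The day 5 arrays of each arm were its lowest and did not overlap with day 0 or day 10. The fall by day 5 was 2.39-fold under 6TCF (-1.26 ± 0.13, adjusted p = 2.07e-05) and 4.61-fold under SGCF (-2.20 ± 0.13, adjusted p = 2.26e-07), with a difference of changes of -0.95 ± 0.18 (adjusted p = 0.00671). By day 10 both arms were at -0.85 ± 0.13 and the difference of changes was -0.0006 ± 0.18 (adjusted p = 0.999). SGCF regained 1.35 ± 0.13 from day 5 to day 10 (adjusted p = 2.92e-05), and 6TCF gave 0.40 ± 0.13 (adjusted p = 0.0559), with 0.19 and -0.11 on the other probe sets. A second probe set was called the same way in all 4 comparisons against day 0 (-0.73 to -1.60), and the third, the dimmest at 6.90, was called in none of the 4 (-0.04 to -0.23). The difference of changes by day 5 was called on the brightest alone, with -0.40 ± 0.22 and -0.19 ± 0.19 on the others (adjusted p = 0.325 and 0.618). Endothelial cells also express Igfbp7. The 7 tested of 10 endothelial markers had a mean level of 6.23 to 6.87 over all arrays. By day 5, 3 of 7 rose and 1 fell under 6TCF, and 2 rose and 0 fell under SGCF. By day 10, 2 were higher and 2 lower under 6TCF, and 2 higher and 1 lower under SGCF. Their part in the changes of Igfbp7 was not tested.

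At day 0 the arms differed in 2 of 9 members, Igfbp5 and Igf1, where 17.1% of all genes were called (8.52% higher and 8.61% lower in the SGCF arm). The arrays of the arms did not overlap for 6 members, as for 59% of all genes. Igf1 was higher in the SGCF arm by 0.73 ± 0.15 (adjusted p = 0.00922), on arrays where the macrophage markers were higher as well, and their part in this was not tested. The count moved with single arrays, to 0 without 6TCF day 0 replicate 2 and to 6 without SGCF day 0 replicate 1, while the count over all genes went from 1828 to 374 and 2957. Without the last, Igfbp5 stood at 0.61, and Igf2, Igf1r, Igfbp4 and Igfbp7 were called lower in the SGCF arm at -0.57, -0.61, -0.50 and -0.50. Igf1 was not called without either 6TCF day 0 array (0.72 and 0.73), and Igfbp5 not without replicate 2 of them (0.81). On the other probe sets the difference at day 0 was 0.52 ± 0.13 (called) and 0.28 ± 0.18 (not called) for Igf1 and -0.11 ± 0.25 (not called) for Igfbp5.

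In the order of the 6 group means, the top was held by days 5 and 10 of 6TCF or by day 10 of either arm for Igf1, Igf2, Igfbp2, Igfbp3, Igfbp4, Igfbp5 and Igfbp6, and by day 0 for Igf1r and Igfbp7. Day 5 of SGCF was the lowest group for Igf1, Igf2, Igfbp2, Igfbp5, Igfbp6 and Igfbp7. For Igf2 and Igfbp2 it did not differ from the next group, day 0 of SGCF (0.21 ± 0.20 and 0.20 ± 0.16, adjusted p = 0.503 and 0.41). For Igf1, Igfbp5 and Igfbp7 it stood 2.08 ± 0.15, 2.00 ± 0.22 and 1.28 ± 0.13 below the next group (adjusted p = 1.15e-06, 2.65e-05 and 3.49e-05). Igfbp6 was 0.21 ± 0.14 below day 10 of SGCF (adjusted p = 0.331).

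The genes most like each member were sought by Pearson correlation over the 12 arrays among 2843 genes whose group means spanned at least 1 log2 unit. The arrays fall into groups, so the values describe shared time courses and carry no test. Igf1 was closest to Spats2l (r = 0.98) and Pdk4 (0.96), the latter a kinase that restrains pyruvate oxidation. Igf2 and Igfbp4 were both close to Zfp36l1, an mRNA decay factor (0.95 and 0.99), and Igf2 also to the DNA methyltransferase gene Dnmt3a (0.95), while Igfbp4 was also close to Tent5c (0.98). Igf1r was closest to Myh9 (0.98) and Actn1 (0.98), genes of the contractile cytoskeleton. Igfbp2 was closest to the ligand gene Wnt4 and to Atp8a1 (both 0.98), Igfbp3 to the scavenger receptor gene Scara5 and to Crispld1 (both 0.99), and Igfbp5 to Bicc1 (0.96) and the imprinted gene Mest (0.95). Igfbp6 was closest to Spint2 and Cox7a1 (both 0.97), and Igfbp7 to the stress-responsive gene Nupr1 (0.99) and Plpp1 (0.98).

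The only members next to each other on a chromosome are Igfbp2 and Igfbp5, adjacent coding genes in the RefSeq table, and by day 5 of SGCF Igfbp5 fell by 2.96 ± 0.22 and Igfbp2 gave -0.20 ± 0.16. Igfbp3 lies next to Igfbp1, whose highest group mean of 4.76 was below the filter level, so it was not tested.

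Other genes of the pathway were read from a list of 56, of which 47 had a probe set of their own and 45 were tested. By day 5 of 6TCF 11 of 45 were higher and 7 lower, and by day 10 9 were higher and 14 lower (40% and 51.1% called, where 27.6% and 43.1% of all genes were). By day 5 of SGCF 10 were higher and 4 lower, and by day 10 21 were higher and 7 lower (31.1% and 62.2% called, where 25.4% and 38.6% of all genes were). The list's median was 0.03 and -0.06 under 6TCF and 0.10 and 0.36 under SGCF at days 5 and 10, with medians of all genes between -0.01 and 0.03. The count by day 5 of SGCF was 8 when the SGCF arrays were fitted alone, and 7 without SGCF day 5 replicate 2. The count by day 5 of 6TCF was 11 without 6TCF day 0 replicate 1.

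The receptor gene Igf2r, whose product clears IGF2 without signalling, read 11.02 and 11.08, 11.96 and 11.92, and 10.70 and 10.89 at days 0, 5 and 10 of 6TCF, and 10.81 and 9.91, 11.13 and 11.57, and 11.76 and 11.73 with SGCF. It rose by 0.89 ± 0.24 and 0.99 ± 0.24 by day 5 (adjusted p = 0.0148 and 0.00891), but by day 10 it was back at -0.25 ± 0.24 under 6TCF (adjusted p = 0.417) and at 1.39 ± 0.24 under SGCF (adjusted p = 0.000656). Irs1, the docking protein of IGF1R, gave 0.90 ± 0.20 and 0.87 ± 0.20 by day 5 of 6TCF and SGCF (both called). By day 10 Irs1 gave -0.15 ± 0.20 (not called) and 1.15 ± 0.20 (adjusted p = 0.000801). Its SGCF day 0 arrays were far apart, at 10.64 and 9.83. By day 10 the difference of changes was 1.64 ± 0.33 for Igf2r and 1.30 ± 0.29 for Irs1 (adjusted p = 0.00514 and 0.00767). Foxo3, a transcription factor held out of the nucleus by AKT, was called only at day 10 of SGCF among comparisons with day 0 (1.16 ± 0.20, adjusted p = 0.000689).

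Among modulators outside the cell, Stc1 encodes stanniocalcin 1, an inhibitor of the PAPP-A protease that cleaves IGFBP4. It rose by 2.37 ± 0.16 and 2.44 ± 0.16 by days 5 and 10 of 6TCF and by 4.42 ± 0.16 and 3.07 ± 0.16 with SGCF (the largest adjusted p of the 4 was 5.8e-07). The protease gene Htra1 went with Igfbp5 in direction: it rose by 0.64 ± 0.13 by day 5 of 6TCF and fell by 1.23 ± 0.13 by day 5 of SGCF (adjusted p = 0.00312 and 2.64e-05). Pappa, the gene of the protease itself, was not called against day 0 in either arm (-0.57 to 0.40) and rose by 0.97 ± 0.21 from day 5 to day 10 of SGCF (adjusted p = 0.00624). It is named here after its values were seen.

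Inside the cell, Socs2 and Socs3 encode feedback inhibitors of cytokine and growth hormone signalling. Socs2 rose by 1.23 ± 0.13 by day 5 and 2.10 ± 0.13 by day 10 of 6TCF and by 1.13 ± 0.13 by day 10 of SGCF, with 0.33 ± 0.13 by day 5 of SGCF not called. Socs3 rose by 1.72 ± 0.16 and 2.52 ± 0.16 under 6TCF and by 0.73 ± 0.16 and 1.89 ± 0.16 under SGCF. Grb14, an adaptor that inhibits insulin receptor signalling, fell by 1.09 ± 0.14 and by 1.497 ± 0.14 by day 10 of 6TCF and SGCF (adjusted p = 8.11e-05 and 7.15e-06). The fetal RNA-binding protein genes Igf2bp1 and Igf2bp3, whose products bind the Igf2 transcript, fell by 1.60 ± 0.16 and by 1.68 ± 0.12 by day 10 of 6TCF (adjusted p = 1.1e-05 and 5.82e-07). Under SGCF they fell by 0.50 ± 0.16 and by 0.42 ± 0.12 by day 10 (adjusted p = 0.0286 and 0.0141), with differences of changes of 1.10 ± 0.23 and 1.26 ± 0.17 (adjusted p = 0.00579 and 0.000418).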

How the data were processed

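RNA of 12 MEF samples was hybridised to Affymetrix Mouse Genome 430A 2.0 arrays, and groups and replicate numbers came from the sample titles. The deposited values are linear intensity values of 22690 probe sets. RMA, limma and MAS5 are named in the submitters' processing notes without version or role, so the step that made the intensities is not given. The 64 control probe sets were left out, the rest was quantile normalized between arrays, and log2(intensity + 16) was taken. Probe sets with 1 gene symbol (20380, with 691 carrying several and 1555 none) gave 12393 genes, each read on its brightest probe set, and 20351 matched RefSeq (GRCm38.p6) by Entrez number. Genes whose highest group mean was above the 25th percentile of all values, 5.27, were tested (10674).

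The fit was made with limma 3.58.1 (R 4.3.3; lmFit, contrasts.fit, eBayes) over 6 group means, 6 residual and 5.53 prior degrees of freedom, and Benjamini-Hochberg adjustment over all genes within each of 9 comparisons. The arms at day 5 or day 10, and neighbouring group means, were compared in the same way over all pairs of groups, adjusted within each pair. Probe sets were also fitted together (17128 tested). That fit gives the p-values quoted for probe sets other than the brightest, and for the bright Igf2 probe set between the arms at day 5. Other p-values of the brightest probe sets come from the fit over genes. The scripts were tested on simulated data. The number of arrays limits the precision. Named were the 9 members, the 10 other pathway genes with the largest called changes of at least 2-fold against day 0, and the 2 genes most correlated with each member. The members and lists were chosen with earlier results of these data known. Alternatives were median scaling, pseudocounts 1 and 64, no filter, all probe sets, a trended prior, each arm alone, 1 day 0 group, a replicate block and each array left out. Probe sets with several symbols were not used here.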

Additional observations from a re-analysis of the deposited data

Results flagged for a closer look

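The change from day 0 differed between the arms, by a limma test of the difference itself (SGCF minus 6TCF, Benjamini-Hochberg adjusted), for 8 members by day 5 and for 5 by day 10. By day 5 the value was -4.78 for Igfbp5, -3.49 for Igf1, -2.01 for Igfbp4, -1.74 for Igfbp3, -1.69 for Igfbp2, -1.56 for Igfbp6, -1.11 for Igf2 and -0.95 for Igfbp7. By day 10 it was -1.88 for Igfbp6, -1.74 for Igfbp5, -1.71 for Igfbp2, -1.004 for Igf1 and 0.80 for Igf1r. The call of Igf1r by day 10 was lost without any one of 8 arrays, and that of Igf2 by day 5 without any one of 5. Both were also lost with pseudocount 1. The dim probe set of Igfbp5 gave -0.35 by day 10 (adjusted p = 0.522). Igf1 and Igfbp5 also differed at day 0 on their brightest probe sets, by 0.73 and 0.96 (SGCF minus 6TCF), and both calls were lost without 6TCF day 0 replicate 2 (adjusted p = 0.0691 and 0.115). The dimmest probe sets gave 0.28 and -0.11 there, neither called. By day 5 the differences of changes of Igf2 and Igfbp7 were called on the brightest probe set alone. Igfbp6 rose in 1 arm and fell in the other at both times.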

How the results depend on the processing

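Of 1116 alternative values of the 55 called member changes, 1074 kept call and direction, 42 lost the call in the same direction and 0 reversed. Many of these alternatives left out an array that was not part of the comparison. Others, such as no filter or all probe sets, left the members' values as they were. The share kept therefore says little about the arrays that carry a change. The values that changed sign belonged to changes that were not called. With arrays scaled to a common median these were Igf2 (0.0934) and Igfbp5 (0.089) from day 5 to day 10 of 6TCF, Igfbp5 by day 10 of SGCF (-0.0591) and Igfbp6 between the arms at day 0 (-0.0394), and with pseudocount 64 the difference of changes of Igfbp7 by day 10 (0.0013). Leaving out each array in turn gave -0.11 to 0.012 for Igf2 and -0.0677 to 0.055 for Igfbp5 from day 5 to day 10 of 6TCF. It gave -0.57 to 0.16 for Igf2 by day 5, -0.13 to 0.32 for Igfbp2 and -0.26 to 0.43 for Igfbp5 by day 10, and -0.17 to 0.24 for Igf1r from day 5 to day 10 of SGCF. At day 0 between the arms it gave -0.57 to 0.15 for Igf2, -0.18 to 0.0662 for Igfbp2 and -0.077 to 0.12 for Igfbp6. The difference of changes ran from -0.14 to 0.31 for Igf1r by day 5, and by day 10 from -0.36 to 0.37 for Igf2 and from -0.18 to 0.18 for Igfbp7. The count of members called ran from 1 to 4 from day 5 to day 10 of 6TCF and from 0 to 6 at day 0. The other pathway genes called ran from 11 to 20 and from 3 to 18 (day 5 against day 0 and day 10 against day 5 of 6TCF), from 7 to 16 and from 9 to 18 (the same for SGCF), from 2 to 16 at day 0, and from 4 to 11 and from 9 to 20 for the differences by days 5 and 10. With the SGCF arrays fitted alone, 8 of them were called by day 5. Causes were not tested. Igfbp7 from day 5 to day 10 of 6TCF gained a call under 6 alternatives, median scaling among them (0.49, adjusted p = 0.0201). Same-numbered replicates did not deviate together (correlations of -0.27 to 0.11, over 0.1 in 2 of 15 pairs). The replicate block changed 1 member call, the difference of changes of Igf1r by day 10 (0.80, adjusted p = 0.0519). Dim probe sets, and Igf1 at day 5 of SGCF, are limited by signal near background.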
